A study of Mus musculus with 12 samples.

Results

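The CXC chemokines are small secreted proteins that steer leukocytes, and 10 of their genes were followed across bone marrow-derived macrophages (BMDMs) of wild-type and Nlrp3-/- mice at rest and after LPS+ATP. The genes were chosen by symbol (Cxcl1, Cxcl2, Cxcl3, Cxcl5, Cxcl9, Cxcl10, Cxcl11, Cxcl12, Cxcl14 and Cxcl16), each had 1 row in the table, and together they were 10 of its 55335 genes. RNA was sequenced in 12 libraries, 3 for each of 4 groups: unstimulated wild type, wild type with LPS+ATP, unstimulated Nlrp3-/- and Nlrp3-/- with LPS+ATP. By the sample labels, costimulated cells had 4 hours of LPS, a bacterial ligand of Toll-like receptor 4, and then 30 min of ATP, a trigger of the NLRP3 inflammasome, while the methods of the study give longer exposures to both. The cells were adherent cells grown from the marrow of young adult C57BL/6 mice in macrophage colony-stimulating factor, and Nlrp3-/- mice lack Nlrp3 in every cell type, not in macrophages alone. Neither source says whether the 3 libraries of a group came from separate animals, so p-values measured only the spread between these libraries, which may be technical.

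CXC chemokines act through G protein-coupled receptors and fall into classes by motif and regulation. Cxcl1, Cxcl2, Cxcl3 and Cxcl5 carry the ELR motif and draw neutrophils through CXCR2, and macrophages induce them through NF-kB after Toll-like receptor signals. Cxcl9, Cxcl10 and Cxcl11 are interferon-inducible ligands of CXCR3, which is carried by activated T cells and NK cells. Cxcl12 is the homeostatic ligand of CXCR4 and of the scavenging receptor ACKR3 and is made mainly by stromal cells, Cxcl14 is a homeostatic chemokine of epithelial and stromal cells, and Cxcl16 is made as a membrane-bound protein that binds CXCR6 and also takes up oxidised lipoprotein.

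Of the 10 genes, 7 lie on chromosome 5 in RefSeq's GRCm38.p6 annotation. Cxcl5, Ppbp, Pf4, Cxcl3, Cxcl15, Cxcl1 and Cxcl2 follow each other there, and Cxcl9, Cxcl10 and Cxcl11 form a further cluster that also holds Art3. Cxcl12 lies on chromosome 6, Cxcl16 on chromosome 11 and Cxcl14 on chromosome 13. RefSeq lists Cxcl11 as a transcribed pseudogene in this C57BL/6 reference, so its values are levels of RNA only.

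Promoter sequence from RefSeq (GRCm38.p6), 250 bases before to 50 bases after the annotated start, was matched for 7 of the 10 genes. Cxcl5, Cxcl11 and Cxcl16 had no entry. An NF-kB-type motif (GGGNNTTNCC, read on both strands) and an interferon-response-type motif (GAAANNGAAA, read on both strands) were searched. They were found in 4.78% and 3.45% of 32544 promoter windows of the same length. The windows of the 3 most alike ELR genes and of the 2 interferon-inducible genes with an entry are shown because these 5 genes had the largest responses to LPS+ATP on the log2(FPKM + 1) scale used below. Capitals mark the motif matches.
Cxcl1, chr5:90890995-90891294, plus strand: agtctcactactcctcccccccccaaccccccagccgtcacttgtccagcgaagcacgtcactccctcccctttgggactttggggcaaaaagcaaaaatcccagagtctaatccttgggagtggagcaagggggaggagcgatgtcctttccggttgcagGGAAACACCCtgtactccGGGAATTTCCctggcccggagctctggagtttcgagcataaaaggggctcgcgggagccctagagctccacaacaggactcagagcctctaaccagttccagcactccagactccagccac
Cxcl2, chr5:90903649-90903948, plus strand: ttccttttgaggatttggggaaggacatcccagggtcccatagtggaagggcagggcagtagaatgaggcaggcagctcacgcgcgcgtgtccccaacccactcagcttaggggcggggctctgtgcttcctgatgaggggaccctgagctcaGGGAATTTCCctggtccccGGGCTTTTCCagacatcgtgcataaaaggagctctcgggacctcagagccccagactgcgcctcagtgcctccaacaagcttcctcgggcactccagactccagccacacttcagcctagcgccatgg
Cxcl3, chr5:90785851-90786150, plus strand: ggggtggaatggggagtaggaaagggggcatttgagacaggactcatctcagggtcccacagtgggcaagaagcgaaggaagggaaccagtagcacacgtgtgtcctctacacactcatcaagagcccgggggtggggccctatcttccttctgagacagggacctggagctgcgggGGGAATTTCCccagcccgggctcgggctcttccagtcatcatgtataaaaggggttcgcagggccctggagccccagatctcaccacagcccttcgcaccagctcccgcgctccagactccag
Cxcl9, chr5:92328030-92328329, minus strand: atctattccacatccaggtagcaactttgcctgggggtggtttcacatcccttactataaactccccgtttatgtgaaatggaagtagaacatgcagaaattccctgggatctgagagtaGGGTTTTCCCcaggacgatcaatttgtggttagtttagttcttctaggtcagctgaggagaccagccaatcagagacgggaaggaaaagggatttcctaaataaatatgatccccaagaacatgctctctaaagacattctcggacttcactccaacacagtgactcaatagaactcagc
Cxcl10, chr5:92348840-92349139, minus strand: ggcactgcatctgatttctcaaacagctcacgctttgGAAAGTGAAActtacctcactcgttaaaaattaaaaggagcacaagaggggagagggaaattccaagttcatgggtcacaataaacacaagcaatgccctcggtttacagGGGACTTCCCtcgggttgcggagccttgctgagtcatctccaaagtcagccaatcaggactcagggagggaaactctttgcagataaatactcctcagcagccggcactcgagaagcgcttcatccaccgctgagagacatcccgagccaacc
The same 10 letters, GGGAATTTCC, stood 71 bases before the start in Cxcl1, 97 bases before it in Cxcl2 and 73 bases before it in Cxcl3. Cxcl1 held another match on the opposite strand that began 89 bases before the start, and Cxcl2 held another 78 bases before it. Cxcl9 held 1 NF-kB-type match 130 bases before the start. Cxcl10 held 1 NF-kB-type match 103 bases before the start and 1 interferon-response-type match 213 bases before it, and these matches did not overlap. The Cxcl14 window held 1 interferon-response-type match and no NF-kB-type match, and the Cxcl12 window held neither. A match describes letters and does not show that a factor bound there.

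Levels were deposited as FPKM, a count of sequenced fragments scaled by gene length and by the fragments mapped in the library, so levels of different genes can be set side by side per length. The number of reads is unknown. Library sums of FPKM ran from 283278 to 299393, the depth of a library relative to the shallowest, estimated from the smallest values, was 1.0 to 1.218, and correlations of log2(FPKM + 1) between libraries of 1 group ran from 0.9897 to 0.9925. Nlrp3 was at 9.68 ± 0.425 FPKM (SD, n = 3) in unstimulated and 32.9 ± 0.801 FPKM in costimulated wild-type libraries and was listed at 0 in all 6 Nlrp3-/- libraries. Xist was at 53.8 FPKM in unstimulated and 33.4 FPKM in costimulated Nlrp3-/- libraries and near 0 in wild type, while Ddx3y, on the Y chromosome, was at 9.10 and 8.52 FPKM in wild type and listed at 0 in Nlrp3-/-. The effect of genotype and that of sex cannot be told apart in these libraries. Nnt, which differs between C57BL/6 substrains, was at 9.38 FPKM in unstimulated wild type and 1.16 FPKM in unstimulated Nlrp3-/-, so a difference in strain background cannot be told apart from genotype either. Macrophage markers were high throughout, with a summed level between 1368 and 2207 FPKM in every library.

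Genes were compared on log2(FPKM + 1) with limma over the 12622 genes that reached 1 FPKM in at least 3 libraries. A gene was called when its Benjamini-Hochberg adjusted p was under 0.05 and its log2 fold change was at least 1 in either direction. All 10 CXC chemokines passed the filter, but Cxcl9 and Cxcl11 reached 1 FPKM only in the costimulated groups, so their rise with stimulation was in part a condition of being tested. The added 1 pulls in the fold changes of genes with levels under 1 FPKM, and for such genes the ratio of mean FPKM is also given.

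**Figure D1:**
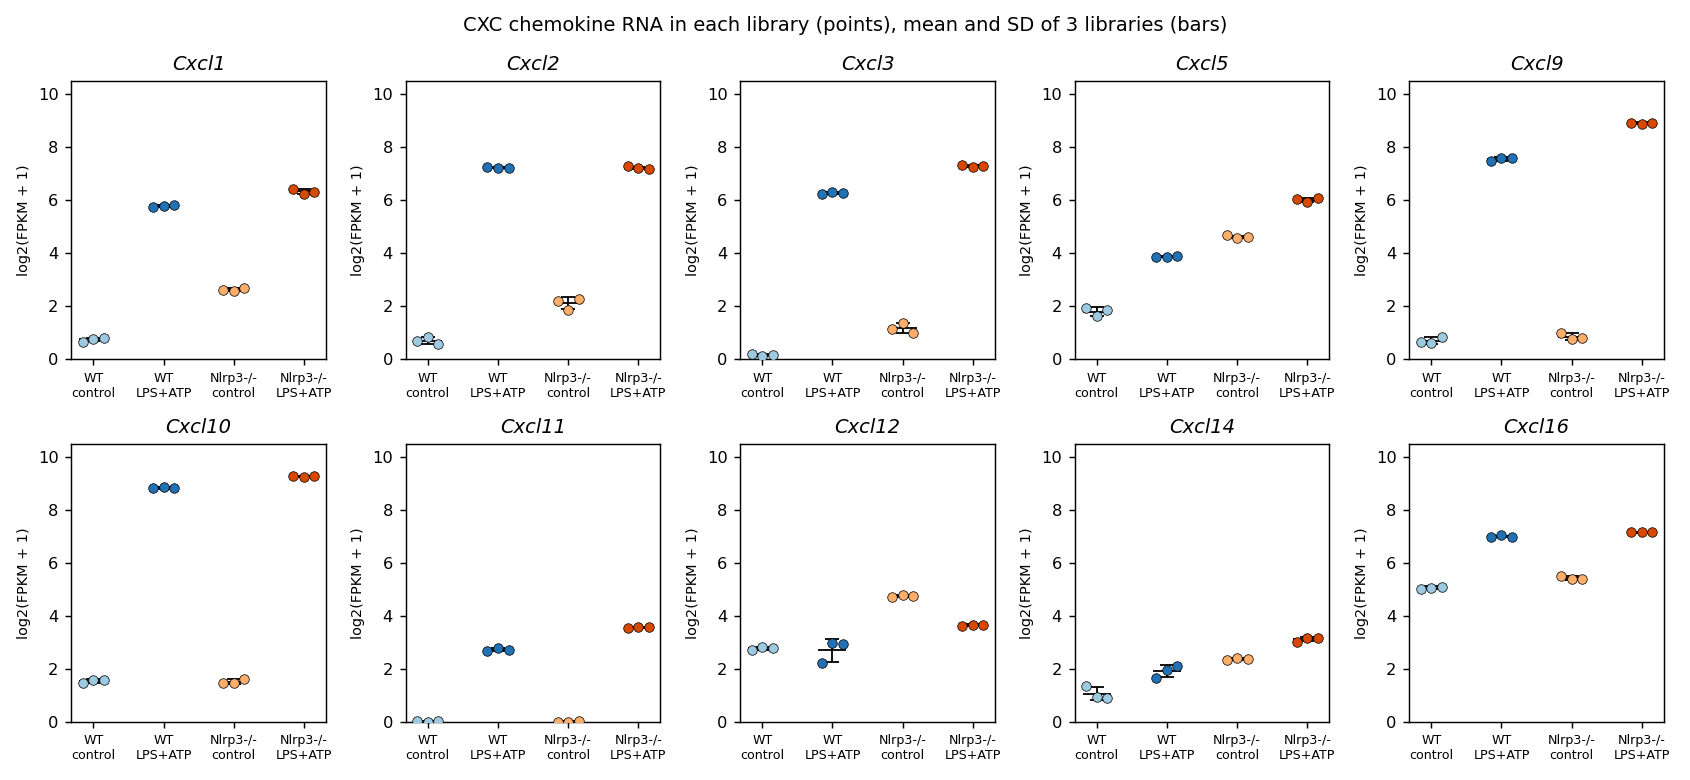
Level of each CXC chemokine as log2(FPKM + 1) in the 4 groups, with 1 point per library and bars for the mean and SD of 3 libraries. Cxcl1, Cxcl2, Cxcl3, Cxcl9, Cxcl10 and Cxcl11 sit low in both control groups and high in both LPS+ATP groups, and Cxcl12 is highest in unstimulated Nlrp3-/-. Cxcl1, Cxcl2, Cxcl3, Cxcl5, Cxcl12, Cxcl14 and Cxcl16 sit higher in Nlrp3-/- controls than in wild-type controls.

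With LPS+ATP, 8 of the 10 CXC chemokines rose in wild-type BMDMs and none fell. The 8 were Cxcl1, Cxcl2, Cxcl3, Cxcl5, Cxcl9, Cxcl10, Cxcl11 and Cxcl16, against 8.25% of all tested genes called higher and 11.2% called lower. At an unadjusted limma p under 0.05 with no fold limit, 0 of the 10 were lower in wild type, against 54% of tested genes. The same 8 genes rose in Nlrp3-/- BMDMs and Cxcl12 fell, against 6.64% of tested genes called higher and 8.21% called lower. The median log2 fold change of the 10 genes was 3.87 in wild type and 3.63 in Nlrp3-/-, beside -0.25 and -0.24 over all tested genes. These counts and medians include Cxcl9 and Cxcl11, which passed the filter only through the costimulated groups, so they are in part a result of the filter. Median-ratio scaling brought those all-gene medians to -0.02 and -0.01 and kept the direction of each of the 8 rises in both genotypes.

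Among the neutrophil attractants, Cxcl1, a main ligand of CXCR2, stood at 0.579, 0.699 and 0.731 FPKM in unstimulated wild-type libraries and at 52.2, 53.3 and 54.8 FPKM with LPS+ATP. In Nlrp3-/- it stood at 5.17, 5.01 and 5.36 FPKM unstimulated and at 85.8, 75.0 and 79.0 FPKM with LPS+ATP. The 4 groups did not overlap, and Nlrp3-/- lay above wild type in both states. The ratio of means was 79.8 in wild type and 15.4 in Nlrp3-/-, and the log2 fold changes were 5.03 (SE 0.05, adjusted p = 1.68e-14) and 3.71 (SE 0.05, adjusted p = 2.33e-13).

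Cxcl2, also called MIP-2, stood at 0.596, 0.800 and 0.477 FPKM in unstimulated wild type and at 150.6, 147 and 146 FPKM with LPS+ATP. In Nlrp3-/- it stood at 3.59, 2.65 and 3.82 FPKM unstimulated and at 154, 146 and 144 FPKM with LPS+ATP. The costimulated groups overlapped, while the unstimulated groups did not. From these unequal starting levels to like end levels, the ratio of means was 237 in wild type and 44.1 in Nlrp3-/-, with log2 fold changes of 6.52 (SE 0.10, adjusted p = 2.1e-13) and 5.11 (SE 0.10, adjusted p = 2.07e-12).

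Cxcl3, a close relative of both, stood at 0.139, 0.0751 and 0.115 FPKM in unstimulated wild type and at 75.0, 78.8 and 76.5 FPKM with LPS+ATP. In Nlrp3-/- it stood at 1.18, 1.56 and 0.996 FPKM unstimulated and at 160.0, 152 and 154 FPKM with LPS+ATP. No groups overlapped, and Nlrp3-/- was the higher genotype in both states. The log2 fold change was 6.13 in each genotype (SE 0.07 in both, adjusted p = 4.09e-14 in wild type and 5.35e-14 in Nlrp3-/-), although the ratio of means was 699 in wild type and 124 in Nlrp3-/-. The wild-type control level was far below the added 1, and with 0.1 added instead the log2 fold changes were 8.53 and 6.87.

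Cxcl5, also called LIX, had the smallest response of the ELR genes and, on the log2(FPKM + 1) scale, the largest difference between genotypes in both states. It stood at 2.79, 2.05 and 2.61 FPKM in unstimulated and 13.6, 13.4 and 13.7 FPKM in costimulated wild type, and at 24.5, 22.8 and 23.2 FPKM in unstimulated and 64.9, 60.4 and 66.1 FPKM in costimulated Nlrp3-/-. The lowest unstimulated Nlrp3-/- library thus lay above the highest costimulated wild-type library. Its log2 fold change with LPS+ATP was 2.07 in wild type (SE 0.07, adjusted p = 2.26e-10) and 1.40 in Nlrp3-/- (SE 0.07, adjusted p = 9.69e-09).

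Among the interferon-inducible genes, Cxcl10 and Cxcl9 reached the highest levels of the 10 genes. Cxcl10, also called IP-10, stood at 1.77, 1.97 and 1.97 FPKM in unstimulated and 449, 464 and 452 FPKM in costimulated wild type. In Nlrp3-/- it stood at 1.77, 1.78 and 2.06 FPKM unstimulated and at 625, 613 and 616 FPKM with LPS+ATP. The control groups overlapped and the costimulated groups did not. The ratio of means was 239 in wild type and 331 in Nlrp3-/-, with log2 fold changes of 7.30 (SE 0.04, adjusted p = 3.08e-16) and 7.75 (SE 0.04, adjusted p = 2.67e-16).

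Cxcl9, also called MIG, stood at 0.557, 0.507 and 0.797 FPKM in unstimulated and 175, 192 and 189.9 FPKM in costimulated wild type. In Nlrp3-/- it stood at 0.990, 0.697 and 0.734 FPKM unstimulated and at 484, 472 and 487 FPKM with LPS+ATP. The control groups overlapped, and every costimulated Nlrp3-/- library lay above every costimulated wild-type library. The ratio of means was 299 in wild type and 596 in Nlrp3-/-, with log2 fold changes of 6.85 (SE 0.07, adjusted p = 1.84e-14) and 8.06 (SE 0.07, adjusted p = 6.36e-15).

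Cxcl11, also called I-TAC, stood at 0.0131, 0 and 0.0214 FPKM in unstimulated wild type and at 0, 0 and 0.0125 FPKM in unstimulated Nlrp3-/-. With LPS+ATP it stood at 5.38, 5.92 and 5.59 FPKM in wild type and at 10.6, 10.9 and 10.8 FPKM in Nlrp3-/-. Costimulated Nlrp3-/- libraries lay above costimulated wild-type libraries, and no ratio to the controls is given because 3 control libraries were listed at 0. Its fitted log2 fold changes of 2.71 in wild type and 3.55 in Nlrp3-/- (SE 0.05 in both, adjusted p = 6.54e-13 and 9.51e-14) depend on the added 1 and became 5.69 and 6.71 with 0.1 added.

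Cxcl16 had the highest level of the 10 genes in resting cells of both genotypes, though below that of Pf4, a CXC ligand gene outside the 10 (205 FPKM in unstimulated wild type and 276 FPKM in unstimulated Nlrp3-/-). Ppbp, also outside the 10, was at 31.3 FPKM in unstimulated wild type and, above Cxcl16, at 108 FPKM in unstimulated Nlrp3-/-. Cxcl16 stood at 31.1, 32.4 and 33.5 FPKM in unstimulated and 126, 130.1 and 125 FPKM in costimulated wild type, and at 44.1, 40.9 and 41.2 FPKM in unstimulated and 142, 144 and 141 FPKM in costimulated Nlrp3-/-. No groups overlapped. The ratio of means was 3.93 in wild type and 3.38 in Nlrp3-/-, with log2 fold changes of 1.94 (SE 0.04, adjusted p = 1.54e-12) and 1.74 (SE 0.04, adjusted p = 4.95e-12).

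The homeostatic pair behaved differently. Cxcl12 stood at 5.52, 6.12 and 5.84 FPKM in unstimulated and 3.62, 6.80 and 6.70 FPKM in costimulated wild type, and at 25.4, 26.8 and 26.2 FPKM in unstimulated and 11.3, 11.7 and 11.7 FPKM in costimulated Nlrp3-/-. The wild-type groups overlapped, with 1 costimulated library well below the other two, and the Nlrp3-/- groups did not. Cxcl12 fell by 1.11 on the log2 scale in Nlrp3-/- (SE 0.16, adjusted p = 6.57e-05), which was a fall to 0.443 of its control mean, and its log2 fold change in wild type was -0.06 (SE 0.16, 95% CI -0.41 to 0.28, adjusted p = 0.721). Without the low library, costimulated wild-type replicate 1, the wild-type value was 0.18 with a limma adjusted p of 0.00494, short of the fold limit. Under median-ratio and upper-quartile scaling it was 0.21 and 0.15. Under those scalings the value in Nlrp3-/- was -0.82 and -0.93, short of the fold limit.

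Cxcl14 stood at 1.54, 0.930 and 0.864 FPKM in unstimulated and 2.18, 2.92 and 3.30 FPKM in costimulated wild type, and at 4.04, 4.34 and 4.11 FPKM in unstimulated and 7.10, 7.97 and 8.06 FPKM in costimulated Nlrp3-/-. No groups overlapped. Its log2 fold change with LPS+ATP was 0.85 in wild type (SE 0.13, adjusted p = 8.58e-05) and 0.75 in Nlrp3-/- (SE 0.13, adjusted p = 0.000249), both under the fold limit. In wild type the limit was passed with 0.1 added (1.28), with TPM (1.19) and under median-ratio (1.07) or upper-quartile (1.02) scaling. TPM raises all values before 1 is added, so it also lessens the weight of the added 1 and is not separate from the result with 0.1.

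**Figure D2:**
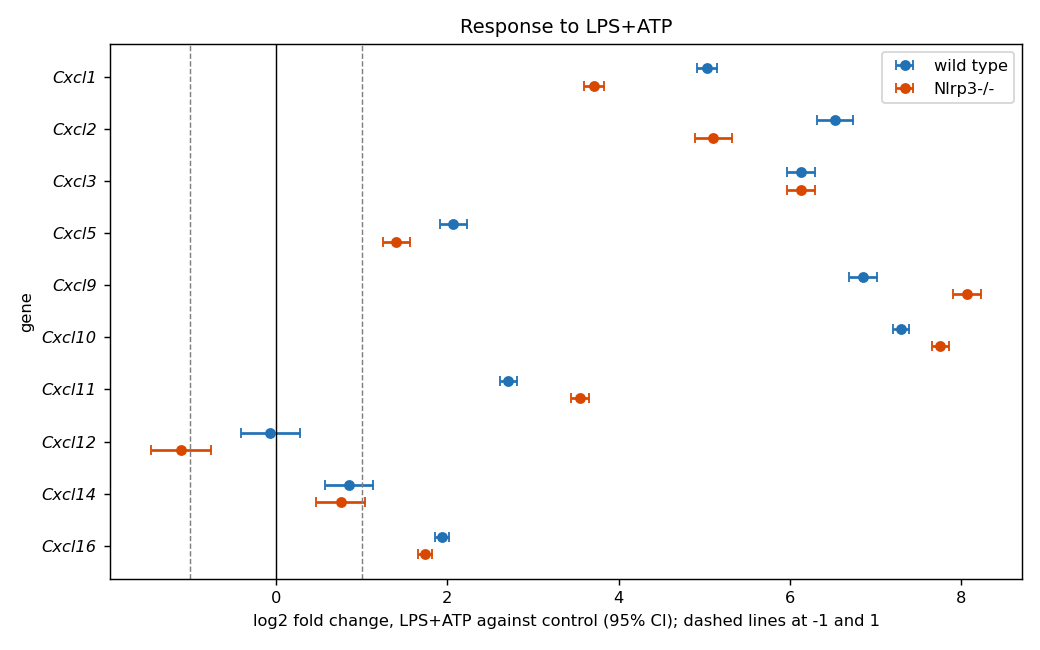
Log2 fold change of each CXC chemokine with LPS+ATP against control in wild type and in Nlrp3-/-, with 95% confidence intervals from limma and dashed lines at -1 and 1. Cxcl9 and Cxcl10 have the largest values in both genotypes (6.85 and 7.30 in wild type, 8.06 and 7.75 in Nlrp3-/-), and Cxcl12 is the only gene with negative values, which in wild type turn positive under median-ratio or upper-quartile scaling (0.21 and 0.15).

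In unstimulated cells, 6 of the 10 genes were higher in Nlrp3-/- than in wild type and none was lower. They were Cxcl1, Cxcl2, Cxcl3, Cxcl5, Cxcl12 and Cxcl14, against 6.02% of tested genes called higher and 0.689% called lower. The median log2 fold change of the 10 genes was 1.16, beside 0.09 over all tested genes. On the log2(FPKM + 1) scale Cxcl5 had the largest difference, at 9.45 times the wild-type mean (log2 fold change 2.82, SE 0.07, adjusted p = 9.14e-11). It was followed by Cxcl12 at 4.48 times (1.99, SE 0.16, adjusted p = 1.05e-06) and Cxcl1 at 7.74 times (1.89, SE 0.05, adjusted p = 2.47e-10). Cxcl2 was at 5.37 times (1.42, SE 0.10, adjusted p = 3.16e-07) and Cxcl14 at 3.75 times the wild-type mean (1.30, SE 0.13, adjusted p = 6.19e-06).

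Cxcl3 had the largest ratio of means, at 11.4 times wild type, but its log2 fold change of 1.01 (SE 0.07, adjusted p = 5.66e-07) sat at the fold limit. It was 0.99 without unstimulated wild-type replicate 2, 0.91 without unstimulated Nlrp3-/- replicate 2, 0.88 under median-ratio scaling and 2.67 with 0.1 added. The genes that did not pass were Cxcl16 (0.37, SE 0.04, adjusted p = 7.25e-06), Cxcl9 (0.16, 95% CI -0.01 to 0.32, adjusted p = 0.107), Cxcl10 (-0.02, 95% CI -0.11 to 0.08, adjusted p = 0.77) and Cxcl11 (-0.01, 95% CI -0.11 to 0.09, adjusted p = 0.875). The 3 interferon-inducible genes thus overlapped between genotypes at rest, and all 4 ELR genes stood apart. The share of all tested genes that stood apart was not counted, and 6035 of 12622 had an adjusted p under 0.05 in this comparison. Without a fold limit and at an unadjusted limma p under 0.05, 0 of the 10 genes were lower in Nlrp3-/-, against 16.7% of tested genes, and with LPS+ATP again 0 were lower, against 14.6%. With so few genes, a count of 0 is near these shares.

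With LPS+ATP, 4 of the 10 genes were higher in Nlrp3-/- and none was lower, against 4.48% of tested genes called higher and 0.57% called lower. The median log2 fold change of the 10 genes was 0.89, beside 0.11 over all tested genes. Cxcl5 was at 4.70 times the wild-type mean (log2 fold change 2.15, SE 0.07, adjusted p = 1.24e-09). Cxcl9 was at 2.59 times (1.37, SE 0.07, adjusted p = 6.6e-08) and Cxcl14 at 2.75 times (1.21, SE 0.13, adjusted p = 1.33e-05). Cxcl3 was at 2.02 times the wild-type mean, with a log2 fold change at the limit (1.01, SE 0.07, adjusted p = 7.2e-07), which was 0.99 without costimulated wild-type replicate 1, 0.99 without costimulated Nlrp3-/- replicate 1 and 0.79 under median-ratio scaling.

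Of the 6 genes short of the limit with LPS+ATP, 5 had an adjusted p under 0.05, as did 48.5% of all tested genes in either direction. Cxcl12 was at 2.03 times the wild-type mean (0.95, SE 0.16, adjusted p = 0.000452) and passed the limit without costimulated wild-type replicate 2 (1.08) or replicate 3 (1.07), with 0.1 added (1.06) and with TPM (1.06). Cxcl11 was at 1.91 times (0.83, SE 0.05, adjusted p = 7.8e-08), Cxcl1 at 1.50 times (0.57, SE 0.05, adjusted p = 5.57e-06) and Cxcl10 at 1.36 times (0.44, SE 0.04, adjusted p = 7.61e-06). Cxcl16 was at 1.12 times (0.16, SE 0.04, adjusted p = 0.00363), and its value was -0.05 under median-ratio scaling. Cxcl2 was the exception, with a log2 fold change of -0.00 (SE 0.10, 95% CI -0.22 to 0.21, adjusted p = 0.99).

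**Figure D3:**
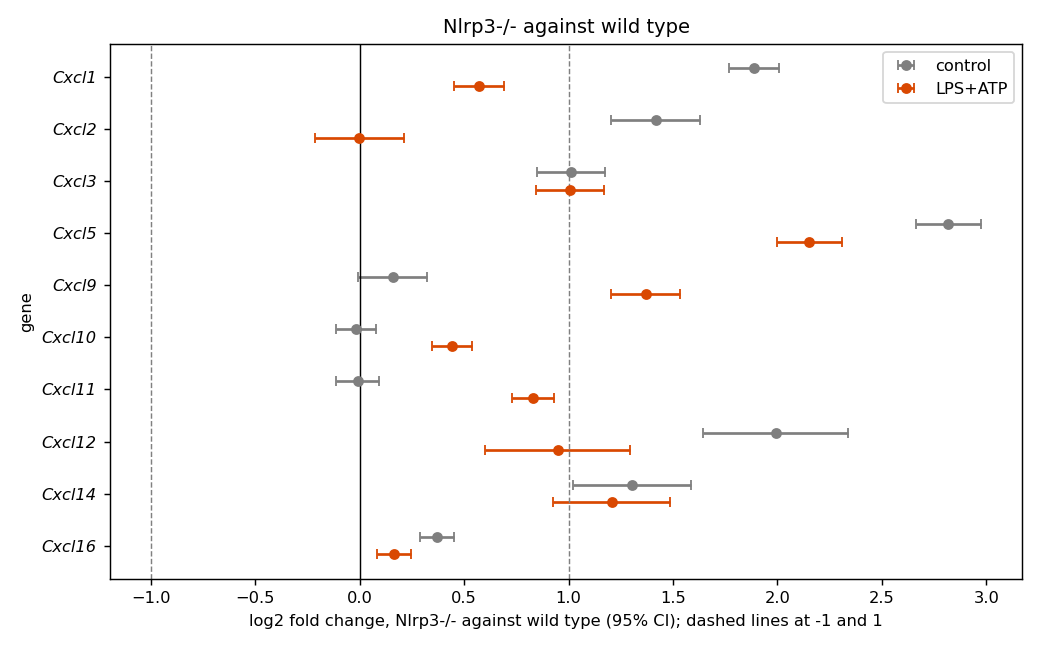
Log2 fold change of each CXC chemokine in Nlrp3-/- against wild type without stimulation and with LPS+ATP, with 95% confidence intervals from limma and dashed lines at -1 and 1. Cxcl1, Cxcl2 and Cxcl12 have larger values in controls (1.89, 1.42 and 1.99) than with LPS+ATP (0.57, -0.00 and 0.95), and Cxcl9 has the reverse (0.16 and 1.37).

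Markers of other cells differed between genotypes in the same libraries. The 7 fibroblast markers, led by collagen genes, summed to 162 to 168 FPKM in unstimulated and 191 to 193 FPKM in costimulated wild type, and to 1188 to 1205 FPKM and 927 to 942 FPKM in Nlrp3-/-. All 7 were tested, and 6 were called higher in Nlrp3-/- without stimulation and 5 with LPS+ATP, against 6.02% and 4.48% of all tested genes. The 8 neutrophil markers summed to 331 to 367 FPKM and 328 to 342 FPKM in wild type, and to 1782 to 1830 FPKM and 703 to 711 FPKM in Nlrp3-/-. Of these, 7 were tested, and 7 were called higher in Nlrp3-/- without stimulation and 4 with LPS+ATP, against the same shares of all tested genes. The near-equal sums in wild type hid opposite changes. With LPS+ATP, 1 of the 7 was called higher and 4 lower in wild type, against 8.25% and 11.2% of all tested genes. In Nlrp3-/-, 1 was called higher and 5 lower, against 6.64% and 8.21%. The 1 called higher was Lcn2 in both genotypes, and in wild type it went from 9.96 to 218 FPKM while S100a9 went from 160 to 49.9 FPKM. No marker of either list was at 0 in all 3 libraries of a group.

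Other lists were smaller or lower in level. The 4 endothelial markers summed to 4.00 to 5.16 FPKM over the wild-type libraries and 7.85 to 11.4 FPKM over the Nlrp3-/- libraries, and of 3 tested, 2 were called higher in Nlrp3-/- without stimulation and 0 with LPS+ATP. Over all tested genes, 6.02% were called higher and 0.689% lower without stimulation, and 4.48% and 0.57% with LPS+ATP. The 4 dendritic cell markers summed to 0.624 to 3.59 FPKM in wild type and 2.16 to 5.49 FPKM in Nlrp3-/-, and the 1 tested was called in neither genotype comparison. The macrophage markers (6 symbols, 7 gene rows) had none called in either genotype comparison, with summed levels of 2144 to 2207 and 1798 to 1834 FPKM in wild type and 1424 to 1444 and 1368 to 1387 FPKM in Nlrp3-/-. Without a fold limit, 4 of the 7 rows had an adjusted p under 0.05 in each comparison, all lower in Nlrp3-/-. Cd68 was among them (-0.73 without stimulation and -0.39 with LPS+ATP). Over all tested genes, 6035 of 12622 and 48.5% did so in either direction. The part of other cells in the higher Cxcl1, Cxcl2, Cxcl3, Cxcl5, Cxcl12 and Cxcl14 of Nlrp3-/- was not tested. In bulk RNA, more cells of a type and more RNA per cell cannot be told apart.

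The response to LPS+ATP differed between genotypes by the interaction term (the response in Nlrp3-/- minus that in wild type) for 4 of the 10 genes. Cxcl9 had a larger response in Nlrp3-/- (1.21, SE 0.11, adjusted p = 1.15e-05), against 0.721% of tested genes with a positive call. Cxcl2 (-1.42, SE 0.14, adjusted p = 2.41e-05), Cxcl1 (-1.32, SE 0.08, adjusted p = 6.94e-07) and Cxcl12 (-1.04, SE 0.22, adjusted p = 0.00528) had negative terms, against 1.43% of tested genes. For Cxcl1 and Cxcl2 the control levels differed more between genotypes than the costimulated levels did. For Cxcl12 the term came with the fall in Nlrp3-/-, and it was -0.91 without costimulated wild-type replicate 2 and -0.92 without replicate 3.

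The other terms were smaller. Cxcl11 (0.84, adjusted p = 5.53e-06) and Cxcl10 (0.46, adjusted p = 0.000254) shared the sign of Cxcl9, and Cxcl5 (-0.67, adjusted p = 0.00058) and Cxcl16 (-0.21, adjusted p = 0.0124) shared that of Cxcl1. Cxcl14 had a term of -0.10 (95% CI -0.50 to 0.30, adjusted p = 0.738). Cxcl3 had a term of -0.00 (95% CI -0.24 to 0.23, adjusted p = 0.983), but with 0.1 added it was -1.66 (adjusted p = 0.000131), so for Cxcl3 the size of the difference rested on how its near-zero wild-type control level was treated. The median term was -0.15 over the 10 genes and 0.02 over all tested genes.

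The makeup of the summed level changed with stimulation. Summed over the 10 genes, the level was 45.7 ± 1.16 FPKM (SD, n = 3) in unstimulated wild type, 1074 ± 21.3 FPKM in costimulated wild type, 108 ± 2.17 FPKM in unstimulated Nlrp3-/- and 1718 ± 25.8 FPKM in costimulated Nlrp3-/-. Cxcl16 made up 70.7% ± 0.89 of the sum in unstimulated wild type and 38.8% ± 0.871 in unstimulated Nlrp3-/-, where Cxcl12 (24.1% ± 1.13) and Cxcl5 (21.7% ± 0.376) took larger shares than in wild type (12.8% ± 0.589 and 5.45% ± 0.884). After LPS+ATP, the 3 interferon-inducible genes made up 60.2% ± 0.361 in wild type and 64.6% ± 0.387 in Nlrp3-/-, and the 4 ELR genes made up 27.2% ± 0.472 and 26.0% ± 0.573. These shares are of RNA levels per length and say nothing of protein.

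Within both classes the balance of close relatives differed between genotypes after LPS+ATP. The ratio of Cxcl9 to Cxcl10 was 0.408 ± 0.0158 in wild type and 0.778 ± 0.0106 in Nlrp3-/-, and the ratio of Cxcl2 to Cxcl1 was 2.77 ± 0.110 in wild type and 1.85 ± 0.0811 in Nlrp3-/-. The libraries of the genotypes did not overlap in either ratio. These ratios are given as descriptions, and neither was tested.

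**Figure D4:**
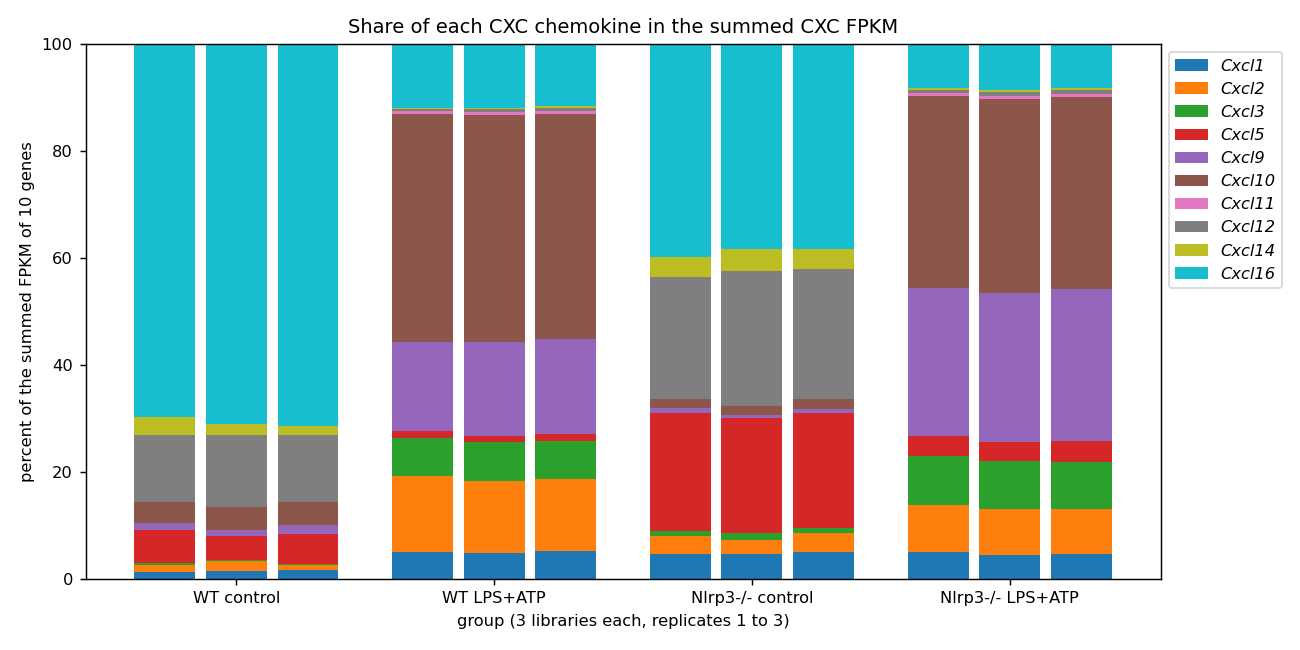
Share of each CXC chemokine in the summed FPKM of the 10 genes followed here, in percent, with 1 stacked bar per library and 3 libraries per group. Cxcl16 leads both control groups (70.7% in wild type and 38.8% in Nlrp3-/-), and Cxcl10 and Cxcl9 lead both LPS+ATP groups.

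Of the 5 other CXC ligand genes listed, Pf4 and Ppbp, which platelets and their precursors store in granules, were tested, and Cxcl13, Cxcl15 and Cxcl17 were too low. Ppbp, a neighbour of Cxcl5, went in opposite directions in the genotypes. It was at 35.0, 30.0 and 29.0 FPKM in unstimulated and 80.4, 80.8 and 79.9 FPKM in costimulated wild type, and at 112, 106 and 106 FPKM in unstimulated and 35.0, 31.4 and 33.0 FPKM in costimulated Nlrp3-/-. It rose in wild type (log2 fold change 1.34, adjusted p = 3.51e-09) and fell in Nlrp3-/- (-1.67, adjusted p = 6.64e-10), with an interaction term of -3.01 (SE 0.09, adjusted p = 5.18e-09). Pf4, the next gene along, was not called in any of these comparisons.

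Of 8 receptor genes, 4 were tested. Cxcr4, the signalling receptor for CXCL12, fell in both genotypes, from 65.7 ± 1.05 to 3.60 ± 0.583 FPKM in wild type (log2 fold change -3.86, adjusted p = 2.33e-12) and from 58.1 ± 0.200 to 6.24 ± 0.404 FPKM in Nlrp3-/- (-3.03, adjusted p = 2.28e-11). Ackr3, which scavenges CXCL12, rose in both (1.08, adjusted p = 4.13e-07, and 1.12, adjusted p = 3.81e-07), to 1.54 and 3.72 FPKM. Its ratio of means was 7.80 in wild type and 3.20 in Nlrp3-/-. Cxcr3, the receptor for CXCL9 and CXCL10, fell in wild type (-1.10, adjusted p = 1.24e-06) and had a log2 fold change of 0.04 in Nlrp3-/- (adjusted p = 0.75), with an interaction term of 1.13 (adjusted p = 0.000145). Cxcr2 was called in neither genotype and Cxcr1, Cxcr5, Cxcr6 and Ackr1 were not tested. No receptor was called between genotypes in either state, but the added 1 pulled in the low levels of Cxcr2 and Ackr3. By ratio of means, Cxcr2 fell to 0.265 of its control in wild type and 0.235 in Nlrp3-/-. Cxcr2 reached 1 FPKM only in unstimulated Nlrp3-/- libraries and stayed at or below 0.417 FPKM in every other library. Its fall in Nlrp3-/- and its higher unstimulated level there were thus in part a condition of being tested. Its mean in costimulated wild type was 0.0742 FPKM, so ratios that use this level are uncertain. Unstimulated Nlrp3-/- had 4.45 times the wild-type Cxcr2 and 5.88 times the Ackr3, and 3.94 and 2.41 times with LPS+ATP. Cxcr3 and Cxcr4 were at 0.596 and 0.884 times unstimulated and 1.80 and 1.73 times with LPS+ATP.

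Among 5 proteases that trim or shed chemokines, 4 were tested. Mmp12, macrophage elastase, fell with LPS+ATP in wild type (-1.24, adjusted p = 2.52e-09) and in Nlrp3-/- (-1.05, adjusted p = 1.52e-08). Mmp9 was higher in Nlrp3-/- without stimulation (1.84, adjusted p = 5.57e-10) and with it (1.16, adjusted p = 3.42e-08). Adam10 and Adam17, which shed membrane-bound CXCL16, were not called in any comparison.

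Of 6 genes of NF-kB feedback and chemokine mRNA decay, 5 rose in each genotype, against 8.25% of tested genes in wild type and 6.64% in Nlrp3-/-. The gene short of the limit was Zfp36 in wild type (1.52 times its control mean) and Bcl3 in Nlrp3-/- (1.80 times). Examples were Nfkbia, the gene of the NF-kB inhibitor IkBa (log2 fold changes 2.64 and 2.08), and Nfkbiz, a nuclear cofactor of NF-kB (2.45 and 1.92). Nfkbiz was also the 1 gene of the list called higher in Nlrp3-/- without stimulation (1.16, adjusted p = 3.02e-09), and none was called between genotypes with LPS+ATP. The median log2 fold change of the list was 2.27 in wild type and 1.86 in Nlrp3-/-.

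Of 12 genes of the type I interferon arm, 11 were tested. With LPS+ATP, 7 rose in wild type and 8 in Nlrp3-/-, against 8.25% and 6.64% of all tested genes. Ifit1 (log2 fold changes 5.36 and 6.20) and Isg15 (5.95 and 6.12), both antiviral effectors, were among them. Between genotypes, none was called higher and 1 lower in each state. Over all tested genes, 6.02% were called higher and 0.689% lower without stimulation, and 4.48% and 0.57% with LPS+ATP. The 1 called lower was Rsad2, the gene of the antiviral enzyme viperin (-1.08 without stimulation, adjusted p = 9.65e-09, and -1.23 with LPS+ATP, adjusted p = 4.58e-09). Without stimulation the 11 genes ran from -1.08 (Rsad2) to 0.22 (Irf1), with a median of -0.44. Ifit1 (-0.98, adjusted p = 5.61e-08) and Irf7 (-0.90, adjusted p = 4.42e-09) were just short of the fold limit there. After LPS+ATP, Cxcl9, Cxcl10 and Cxcl11 had log2 differences of 1.37, 0.44 and 0.83 between genotypes. The 11 tested genes of the arm ran from -1.23 (Rsad2) to 0.17 (Ifnar2), with a median of -0.13. Whether the chemokines differed from the arm was not tested. Ifnb1 was too low to test, at a mean of 0.469 FPKM in costimulated wild type and 0.702 FPKM in costimulated Nlrp3-/-.

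Of 9 genes of LPS and IL-1 signalling, Cd14, Il1a and Il1b rose in both genotypes, against 8.25% of tested genes in wild type and 6.64% in Nlrp3-/-. Il1b rose by a log2 fold change of 10.13 in wild type and 8.66 in Nlrp3-/-, with an interaction term of -1.46 (adjusted p = 8.59e-07), and Il1a rose by 8.67 and 7.44, with a term of -1.23 (adjusted p = 1.29e-07). Il1b was at 0.239 FPKM in unstimulated wild type, and its ratio of means was 5792 in wild type and 680 in Nlrp3-/-. The terms of Il1a and Il1b had the sign of those of Cxcl1 and Cxcl2, but the levels with LPS+ATP differed. Il1a and Il1b were lower in costimulated Nlrp3-/- than in wild type (-0.99, adjusted p = 5.8e-09, and -0.48, adjusted p = 7.26e-05), short of the fold limit. Cxcl1 and Cxcl2 had 0.57 and -0.00 there. Il1r1, the signalling receptor for IL-1, was higher in Nlrp3-/- without stimulation (1.32, adjusted p = 7.35e-09) and fell with LPS+ATP in Nlrp3-/- (-1.19, adjusted p = 6e-09). Short of the fold limit, it also fell in wild type, to 0.542 of its control mean (-0.57, adjusted p = 3.05e-06). With LPS+ATP it was at 2.10 times the wild-type mean in Nlrp3-/- (0.70, adjusted p = 1.55e-06), again short of the limit.

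The tested genes most like each CXC chemokine over the 12 libraries were found by Pearson's r of log2(FPKM + 1), as a description across libraries that share 4 group means. Cxcl10 was nearest to Slc1a2 (0.9998) and Csf3 (0.9998), and Cxcl9 to Apol9a (0.9988), Gm45244 (0.9982) and H2-M2 (0.9975). Cxcl11 was nearest to Susd2 (0.9992), Vnn3 (0.9979) and Gm12185 (0.9975). Among the ELR genes, Cxcl2 was nearest to Adora2a (0.9995), Itga5 (0.9991) and Nfkb2 (0.9988), and Cxcl1 to Pilra (0.9991), Pcx (0.9983) and Egln3 (0.9975). Cxcl3 was nearest to H2-Q4 (0.9988), Dram1 (0.9985) and Rrbp1 (0.9985), and Cxcl5 to Tjp1 (0.9951), Ddit4 (0.9943) and Slc16a1 (0.9943).

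Outside these classes, Cxcl16 was nearest to Tgtp2 (0.9992), Zc3h12a (0.9988) and Clic4 (0.9985). Cxcl14 was nearest to Grem1 (0.9906), a secreted BMP antagonist, Amotl2 (0.9884) and Gpm6b (0.9855). Cxcl12 was nearest to Fbxl7 (0.9774), Plpp5 (0.9765) and Tie1 (0.9764), and had the lowest likeness to any other gene among the 10.

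Sequence shared with other genes could move reads between them, since how reads of shared sequence were counted is not given in the sources used here. In GENCODE M21 transcripts, Cxcl2 and Cxcl3 shared a stretch of 116 bases at 98.3% identity, so part of their reads may be assigned to either. Cxcl5 shared a stretch of at least 100 bases at 95% identity or more with transcripts of Dock3 and Mlh3, so the same holds for it. Exons of Cxcl10, Cxcl11 and Cxcl16 overlapped exons of Art3, Gm2673 and Zmynd15 on the other strand. Art3 and Gm2673 stayed at or below 0.242 FPKM in every library. Zmynd15 ran from 2.20 to 3.31 FPKM in control and from 12.3 to 13.9 FPKM in costimulated libraries, which followed Cxcl16, and whether the counting used strand is not given in the sources used here.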

How the data were processed

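The data were 12 RNA-seq libraries of mouse BMDMs in 4 groups of 3 (genotype by LPS+ATP), made with a TruSeq RNA kit per the labels. The authors deposited 1 table of FPKM per gene and library. The submitters' processing notes name GRCm39 and DESeq2 1.24.0 with no role, and the aligner and counter are not given in the sources used here. Each library had its own column, and every such column was used (0 unused). FPKM keeps no read number, so depth in reads is unknown and no counting interval is given.

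The filter kept the 12622 of 55335 genes that reached 1 FPKM in 3 or more libraries. Their log2(FPKM + 1) values were fitted in limma 3.58.1 under R 4.3.3, using all 12 libraries, a mean for each group and a variance trend. Benjamini-Hochberg adjustment ran over all tested genes. The code was tested on simulated data. Plots and summaries used Python 3.11.15, pandas 2.3.3, numpy 2.4.6 and matplotlib 3.10.9. Shared transcript sequence was sought with blastn 2.17.0+ (100 bases or more, 95% identity or more).

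The 10 genes and all lists were chosen with earlier results of these data known. Genes named were the 10 CXC chemokines, genes of the lists, the 3 tested genes most like each member, and Nlrp3, Xist, Ddx3y and Nnt as checks. An item that falls under this rule is not reported here. Partner genes of overlapping exons were named after the overlaps were found. Alternatives were a pseudocount of 0.1, other filters and scalings, a replicate block, no variance trend, the compared groups alone, no fold limit and each library left out in turn.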

Additional observations from a re-analysis of the deposited data

Results flagged for a closer look

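The response to LPS+ATP differed between Nlrp3-/- and wild type by limma's interaction term for 4 CXC chemokines. The terms were -1.32 for Cxcl1, -1.42 for Cxcl2, 1.21 for Cxcl9 and -1.04 for Cxcl12 on the log2(FPKM + 1) scale. Cxcl12 fell short of the fold limit without costimulated wild-type replicate 2 (-0.91) or replicate 3 (-0.92). In the same comparison 0.721% of tested genes had positive and 1.43% negative calls. With 3 libraries per group, no library was tested as an outlier within its group.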

How the results depend on the processing

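Of 1040 log2 fold changes of the 10 genes recomputed under the alternatives, 1002 kept their direction and their side of the thresholds, 12 fell short of them, 10 newly passed and 16 changed sign. Without a fold limit, 9 genes in place of 4 differed between genotypes with LPS+ATP, and 8 in place of 4 had an interaction term. Leaving out each library gave 8 calls for stimulation in wild type and 9 in Nlrp3-/- throughout, 5 to 6 for genotype without stimulation, 3 to 5 with LPS+ATP and 3 to 4 for the interaction. Sign changes were small: Cxcl12 with stimulation in wild type (0.21 under median-ratio and 0.15 under upper-quartile scaling, and -0.19 to 0.18 with libraries left out), Cxcl16 between costimulated genotypes (-0.055 under median-ratio scaling), Cxcl2 there (0.021 with TPM, -0.032 to 0.019 with libraries left out), Cxcl10 between unstimulated genotypes (-0.064 to 0.0069 with libraries left out) and the Cxcl3 interaction term (-0.085 to 0.095 with libraries left out). The Cxcl11 interaction term passed the limit with 0.1 added (1.02). Median-ratio scaling moved the split of all calls from 1041 higher and 1411 lower to 1388 and 895 in wild type, from 838 and 1036 to 1091 and 598 in Nlrp3-/-, from 760 and 87 to 571 and 146 between unstimulated genotypes and from 565 and 72 to 430 and 125 between costimulated genotypes. Upper-quartile scaling moved it to 1303 and 969 in wild type and to 1002 and 738 in Nlrp3-/-. With 0.1 added, calls over all genes went from 2452 to 3702, 1874 to 2847, 847 to 1428, 637 to 1406 and 271 to 634 in the order of the comparisons above, and with TPM the last 3 became 1285, 1175 and 501. A filter at 5 FPKM left 515 in place of 847 genes between unstimulated genotypes. With no fold limit, calls over all genes were 9641, 9383, 6035, 6124 and 3494. Replicate numbers did not pair the libraries (correlations of deviations from -0.0565 to 0.0528), and a fit with a replicate block called 8, 9, 6, 4 and 4 of the 10 genes, the counts of the fit without it. The depth in reads is unknown, so the precision of levels under 1 FPKM, where Cxcl1, Cxcl2, Cxcl3, Cxcl9 and Cxcl11 stood in unstimulated wild type, could not be stated from counting.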
